A study of Mus musculus with 9 samples.

Results

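The chromatin regions of the Gata2 and Gata3 loci were described across 9 ATAC-seq peak lists of the embryonic mouse cochlear duct. ATAC-seq marks accessible DNA by inserting sequencing adapters where a transposase can reach it. A peak was taken as a member when its summit was nearest, within 1 Mb, to a start site of a protein-coding Gata2 or Gata3 transcript in the mm9 build. This rule gave 86 of 286921 peaks, 20 at Gata2 and 66 at Gata3. Peaks of the 9 lists lying within 100 bp of each other were joined into regions, and 26 of 69354 regions were members, 6 at Gata2 and 20 at Gata3.

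The cells came from mice with EGFP knocked into the Sox2 coding region (strain B6;129S-Sox2tm2Hoch/J), so all groups shared this allele. Cells with the highest EGFP signal (Sox2-EGFP+, called prosensory cells in the study) were sorted at E12, E14.5 and E16, with 2 samples per stage, each from 1 litter of pooled cochlear ducts. Cells without EGFP signal (Sox2-EGFP-) gave 1 sample at E14.5 and 2 at E16, cells of low EGFP signal were left out of both gates, and no E12 Sox2-EGFP- sample was among the 9. The cell type tags of 3 E16 samples go against their titles, and the titles were followed here.

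Gata2 and Gata3 encode zinc finger transcription factors that bind DNA at GATA sequences. Gata3 is expressed in the otic placode, the cochlear prosensory domain and the auditory neurons, and haploinsufficiency of the human gene causes a syndrome of hypoparathyroidism, deafness and renal dysplasia. Gata2, best known as a regulator of blood stem and progenitor cells, is also expressed in the developing inner ear, where it acts in the growth of the vestibular canals.

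Both genes have a pair of protein-coding start sites in the annotation. Gata2 is read from the plus strand of chromosome 6, from position 88143885 (the distal start site) or 88148658 (the proximal one). Gata3 is read from the minus strand of chromosome 2, from position 9811661 (distal) or 9800227 (proximal). Distances below are counted from the nearest of these to the highest summit of a region, and positive distances lie downstream.

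Sequences of 6 of the regions described one by one, free of exon bases, are shown so that the positions behind the values can be read. Each is the mm9 sequence of 200 bp around the highest summit on the strand of its gene, except that of the Gata2 proximal promoter, which is the 135 bp upstream of the start site. Capitals mark matches, on either strand, to the letters searched and given further on, and sequences without capitals held none of them.
Gata3 6.33 kb upstream of the distal start site, chr2:9817894-9818093, minus strand: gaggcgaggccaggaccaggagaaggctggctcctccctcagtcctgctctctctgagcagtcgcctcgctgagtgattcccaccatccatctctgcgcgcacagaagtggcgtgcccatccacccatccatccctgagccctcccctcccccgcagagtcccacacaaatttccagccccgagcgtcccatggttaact
Gata3 1.07 kb upstream of the proximal start site, chr2:9801196-9801395, minus strand: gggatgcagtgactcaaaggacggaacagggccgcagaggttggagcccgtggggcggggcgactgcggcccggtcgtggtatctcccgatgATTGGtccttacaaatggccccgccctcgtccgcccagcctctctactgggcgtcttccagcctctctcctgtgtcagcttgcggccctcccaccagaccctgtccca
Gata3 909 kb downstream, chr2:8890917-8891116, minus strand: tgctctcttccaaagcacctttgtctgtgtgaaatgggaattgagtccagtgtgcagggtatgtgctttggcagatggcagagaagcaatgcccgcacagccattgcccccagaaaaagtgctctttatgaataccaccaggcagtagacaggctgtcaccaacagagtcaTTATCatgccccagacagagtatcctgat
Gata2 proximal promoter, chr6:88148523-88148657, plus strand: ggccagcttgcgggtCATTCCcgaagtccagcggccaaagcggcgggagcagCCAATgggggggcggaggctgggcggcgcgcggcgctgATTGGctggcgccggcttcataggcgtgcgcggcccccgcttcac
Gata2 4.13 kb upstream of the distal start site, chr6:88139655-88139854, plus strand: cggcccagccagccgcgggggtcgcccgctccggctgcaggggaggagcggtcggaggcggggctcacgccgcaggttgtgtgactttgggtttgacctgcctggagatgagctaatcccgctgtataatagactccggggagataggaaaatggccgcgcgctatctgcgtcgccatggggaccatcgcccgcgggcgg
Gata2 45.9 kb upstream of the distal start site, chr6:88097836-88098035, plus strand: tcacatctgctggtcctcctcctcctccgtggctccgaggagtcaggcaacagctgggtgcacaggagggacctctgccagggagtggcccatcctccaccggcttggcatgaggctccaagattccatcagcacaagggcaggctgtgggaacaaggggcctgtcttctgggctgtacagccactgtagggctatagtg

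The lists differed in length, from 7577 peaks (E12 Sox2-EGFP+ replicate 2) to 66332 (E14.5 Sox2-EGFP+ replicate 1), with 65870 in E16 Sox2-EGFP+ replicate 2 and 13817 to 39314 in the other 6. They hold no read counts, so sequencing depth is unknown from them and a missing peak does not show closed chromatin. The study reports reads and the share of reads in peaks for each sample. By its values the E12 samples had the fewest reads, and the 2 longest lists had the highest shares of reads in peaks. The part of depth and of these shares in the peaks called was not tested. A peak had been kept only where another sample of the same cell type had one too. Peaks are therefore given by their percentile and by fold enrichment, the summit signal over the local background. The percentile is the share of peaks in the same list with a lower -log10 p (ties counted as middle ranks). Lists of unlike length hold unlike sets of peaks, so percentiles do not give levels to compare between samples, stages or cell types. Ranks among shared regions are given further on for the regions where they could be tested. Markers of otic mesenchyme (Pou3f4, Tbx18, Twist1, Col1a2 and Coch) had 28 regions, of which 17.9% held a peak in Sox2-EGFP+ cells alone and 46.4% in Sox2-EGFP- cells alone, while the 35 regions of 5 cochlear epithelium markers split 74.3% and 2.86%. Over all regions these shares were 65.5% and 5.63%. The part that mesenchyme in the Sox2-EGFP- sort has in the differences below was not tested.

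Gata3 had more regions than most genes, and nearly all were found in Sox2-EGFP+ cells alone. With 20 regions it exceeded 98.7% of 22238 protein-coding genes, for which the median was 2, and 286 genes had as many or more. Of the 20 regions, 18 held a peak in Sox2-EGFP+ cells alone, 2 were shared by the cell types and 0 were called in the Sox2-EGFP- lists alone. Over all regions of the genome, 65.5% held a peak in Sox2-EGFP+ cells alone and 5.63% in Sox2-EGFP- cells alone. Without the 2 longest lists, both of Sox2-EGFP+ cells, 7 Gata3 regions remained, 5 of them called in Sox2-EGFP+ cells alone, 1 shared and 1 called in Sox2-EGFP- cells alone. The share over all regions is not given for this setting, so these 5 cannot be set against it. Gata2, with 6 regions, exceeded 83.4% of genes, and 4 of its regions were called in Sox2-EGFP+ cells alone, 1 was shared and 1 was called in Sox2-EGFP- cells alone. This Gata2 share of 66.7% in Sox2-EGFP+ cells alone is close to the background.

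**Figure D1:**
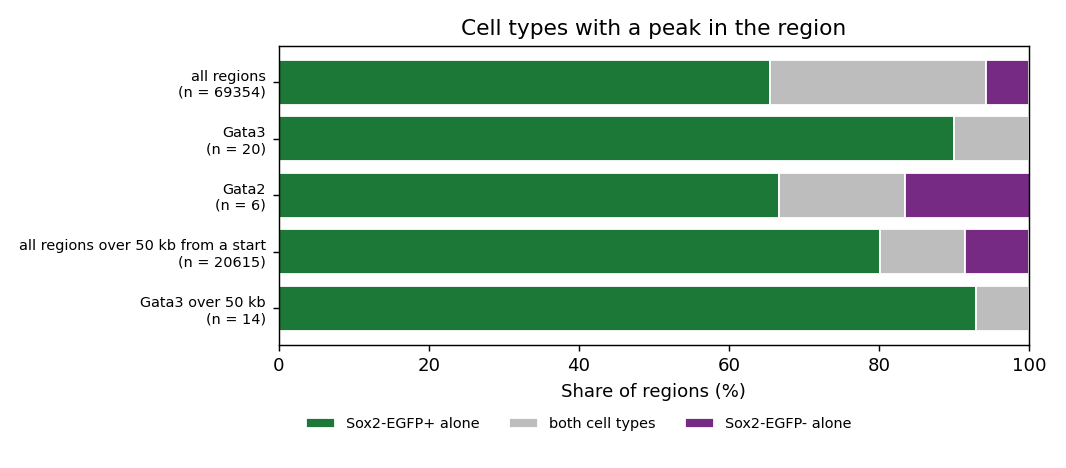
Share of regions (horizontal axis, percent) called in Sox2-EGFP+ cells alone, shared by the cell types (grey) or called in Sox2-EGFP- cells alone, for all regions, for each locus and for regions over 50 kb from a start site. The Gata3 bar holds 90% Sox2-EGFP+ alone and no Sox2-EGFP- alone, and the Gata2 bar 66.7% and 16.7%.

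The number of peaks at Gata3, set against the length of each list, was also higher in Sox2-EGFP+ cells. At E12 it was 3.62 and 5.28 peaks per 10000, at E14.5 it was 3.02 and 2.61, and at E16 it was 1.27 and 3.04. In Sox2-EGFP- cells it was 0.858 at E14.5 and 0.839 and 0.837 at E16, so the 6 Sox2-EGFP+ values lay above all 3 Sox2-EGFP- values. Among 1581 genes with at least 10 regions, 16% showed this order. The Gata3 samples at E12 were the highest, but they also had the shortest lists. The counts behind these values were 4 to 20 peaks per Sox2-EGFP+ sample and 2 in each Sox2-EGFP- sample.

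Gata2 showed no such order. Its peaks per 10000 were 0.724 and 0 at E12, 0.754 and 0.436 at E14.5, and 1.02 and 0.759 at E16, against 0.429, 0.839 and 0.418 in the Sox2-EGFP- samples, and the groups overlapped. These values rest on 0 to 5 peaks per sample.

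**Figure D2:**
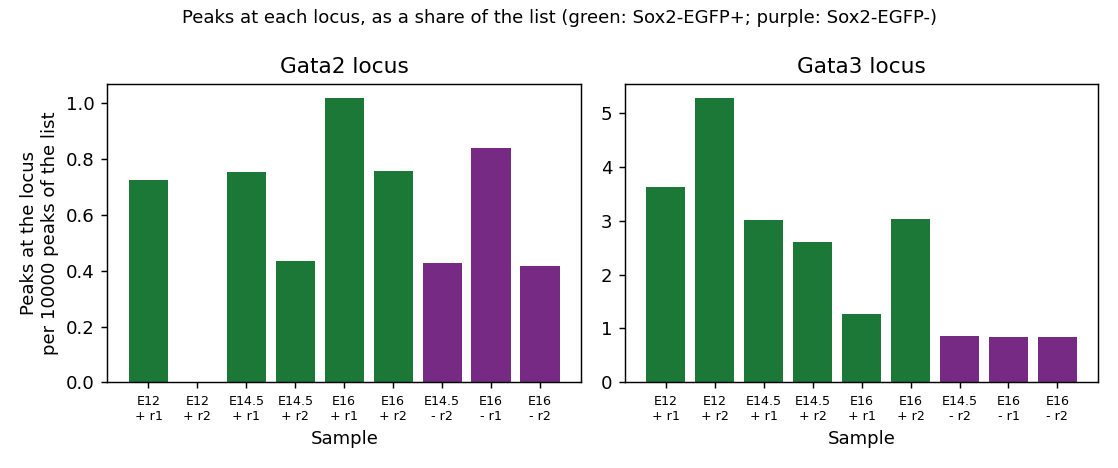
Peaks at each locus per 10000 peaks of the list (vertical axis) in each of the 9 samples, named by stage, cell type (+ or -) and replicate (r). At Gata3 the Sox2-EGFP+ bars run from 1.27 to 5.28 and the Sox2-EGFP- bars from 0.837 to 0.858, while at Gata2 both groups lie at or below 1.02.

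Around the Gata3 gene body and upstream of it lay 6 regions, 5 of them found in Sox2-EGFP+ cells alone. Of all regions within 50 kb of a start site, 59.3% were called in Sox2-EGFP+ cells alone. The region 6.33 kb upstream of the distal start site (chr2:9817445-9818197, intergenic) had the highest mean percentile of the locus among regions called in at least 4 Sox2-EGFP+ samples. Its percentile was 56.4 and 71.4 at E12, 90.4 and 70.6 at E14.5, and 55.5 and 78.2 at E16, with a median fold enrichment of 6.03. Every one of the 6 Sox2-EGFP+ lists and none of the 3 Sox2-EGFP- lists called it, a combination that 0.794% of all regions showed. The summits of the 6 samples lay within 98 bp of each other, and the printed 200 bp had 63% G+C and 9 CpG.

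The proximal promoter of Gata3 (chr2:9799967-9800614, summit 85 bp downstream of the start site) was the other region of this class. Its percentile was 52.1 and 7.17 at E12, 56 and 52 at E14.5, and 52.5 and 54.3 at E16, and fold enrichment ran from 3.24 to 4.76. All samples but E12 replicate 2 sat in the middle of their lists. No peak was called there in a Sox2-EGFP- sample, although the neighbouring region was called in all 3 of them.

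This neighbouring region, 1.07 kb upstream of the proximal start site (chr2:9801054-9801533), lies in an intron of the longer Gata3 transcripts. It was the only member with a peak in all 9 samples, as 7.31% of all regions had. In Sox2-EGFP+ cells its percentile was 30.8 and 65.2 at E12, 78.3 and 53.7 at E14.5, and 81.7 and 74.8 at E16. In Sox2-EGFP- cells it was 71.3 at E14.5 and 64.8 and 52.5 at E16, within the Sox2-EGFP+ range. Its median fold enrichment was 4.62 in Sox2-EGFP+ and 4.5 in Sox2-EGFP- cells.

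A region reaching the distal start site (chr2:9810896-9811670) had its summit 617 bp downstream, in an exon of 9230102O04Rik. Only its E14.5 replicate 1 peak spanned the start site. Another region lay 2.27 kb downstream of the distal start site (chr2:9809244-9809761, summit in an annotated Gata3 exon). Both were called in 5 Sox2-EGFP+ samples, all but E12 replicate 2, and in no Sox2-EGFP- sample. In the region reaching the distal start site, the percentile was 25.1 at E12, 64 and 20.3 at E14.5, and 62.1 and 80.5 at E16. In the Gata3 exon region it was 8.06 at E12, 49.1 and 40.1 at E14.5, and 52.5 and 55.3 at E16. The E12 value was lowest in the Gata3 exon region and second lowest in the region reaching the start site. A Gata3 intron region 7.39 kb downstream of the proximal start site had weak peaks in the 2 longest lists alone, at percentiles 13.7 and 5.72.

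In all, 3 of the 20 Gata3 regions were called in each of the 6 Sox2-EGFP+ lists, against 8.25% of all regions. A peak in at least 1 E12 sample was found in 6 of the 20, against 20.1% of all regions.

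**Figure D3:**
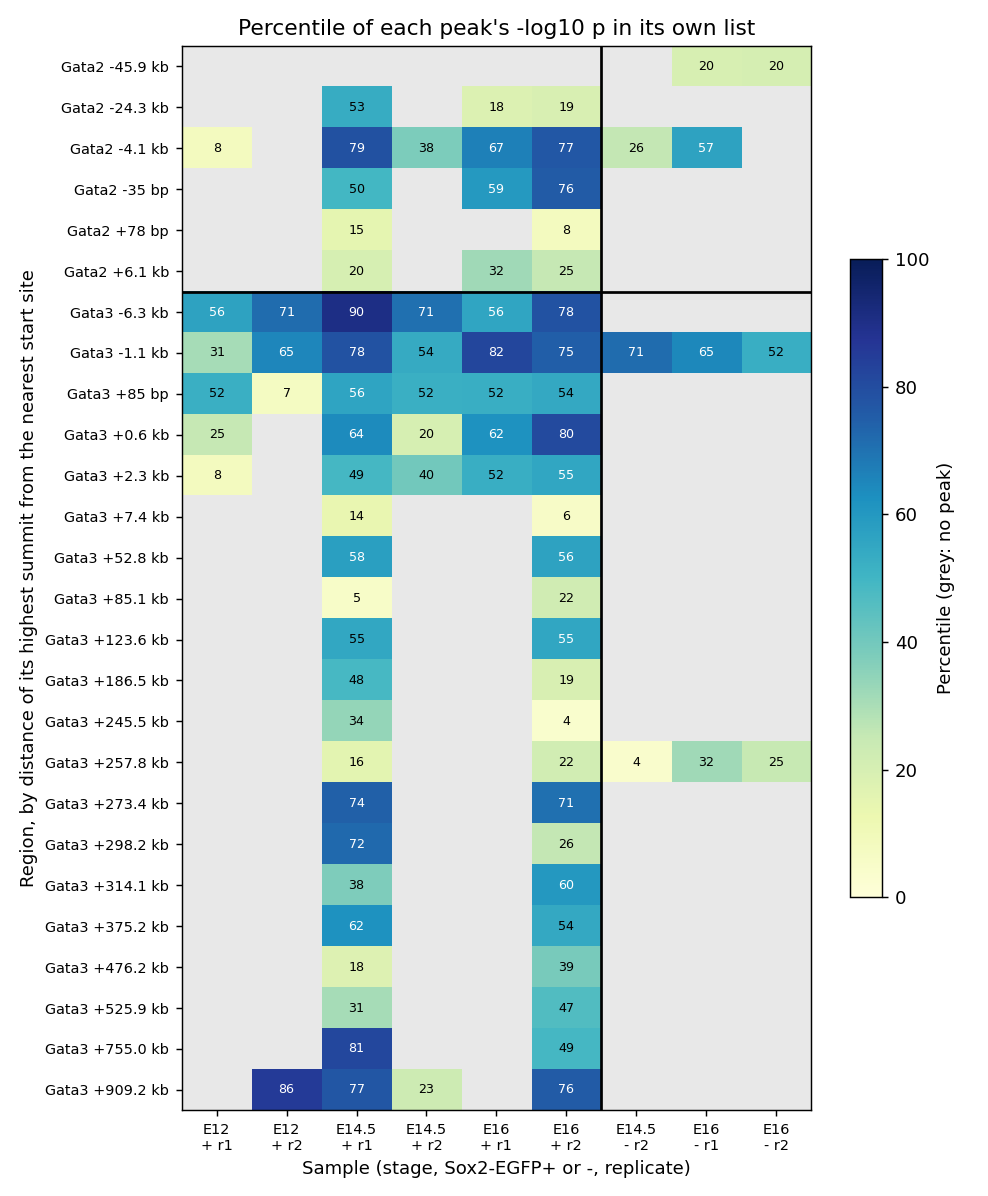
Percentile of -log10 p in its own list (color and number) for the best peak of each sample (columns) in each of the 26 regions (rows, labelled by distance from the nearest start site). Grey cells have no peak, the vertical line separates Sox2-EGFP+ from Sox2-EGFP- samples and the horizontal line separates Gata2 from Gata3. Most Gata3 rows are filled in 2 columns alone, E14.5 replicate 1 and E16 replicate 2.

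The other 14 Gata3 regions all lay downstream of the gene, from 52.8 to 909.2 kb away, and 13 of them were found in Sox2-EGFP+ cells alone, against 80.1% of all regions over 50 kb from a start site. For 12 of the 14, a peak was present in the 2 longest lists alone. This was so of 48.3% of all regions over 50 kb away, of 35.4% of all regions and of 13 of the 20 Gata3 regions. In these 12 regions the percentile had a median of 51.8 in E14.5 replicate 1 (range 5.42 to 81.4) and of 48 in E16 replicate 2 (range 3.69 to 70.7). They thus spread from low to high ranks in both lists. The shorter lists of the same stages had no peak in them, and the part of list length in this was not tested. When start sites of all transcripts, noncoding ones included, were used, 8 regions in place of 20 were nearest to Gata3.

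Of these 12, the region 273 kb downstream (chr2:9526540-9527246) had the highest mean percentile, with 74.5 and 70.7 and fold enrichments of 12 and 7.95. The region 755 kb downstream (chr2:9044978-9045587) had the highest fold enrichment of the locus, 16.2 in E14.5 replicate 1 against 6.2 in E16 replicate 2. These 2 were singled out after their values were seen.

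The farthest region, 909 kb downstream (chr2:8890565-8891386, intergenic), was the only distal one with an E12 peak. It was called in 4 Sox2-EGFP+ samples, with a percentile of 85.5 in E12 replicate 2, 77.1 and 22.7 at E14.5 and 75.6 in E16 replicate 2, and in no Sox2-EGFP- sample. The value in E12 replicate 2 was the highest of any Gata3 peak in that list. Fold enrichment ran from 4.37 to 11.4, and the 4 summits spanned 156 bp.

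One distal region, 258 kb downstream (chr2:9542239-9542678), was shared with Sox2-EGFP- cells. It was called in the 3 Sox2-EGFP- samples at percentiles 4.04, 31.9 and 24.7, and in the 2 longest Sox2-EGFP+ lists at 16 and 21.6. Both groups ranked it low in their own lists. The other Sox2-EGFP+ lists did not call it, although that of E16 replicate 1, with 39314 peaks, was longer than each Sox2-EGFP- list. Without the 2 longest lists it was called in Sox2-EGFP- cells alone.

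**Figure D4:**
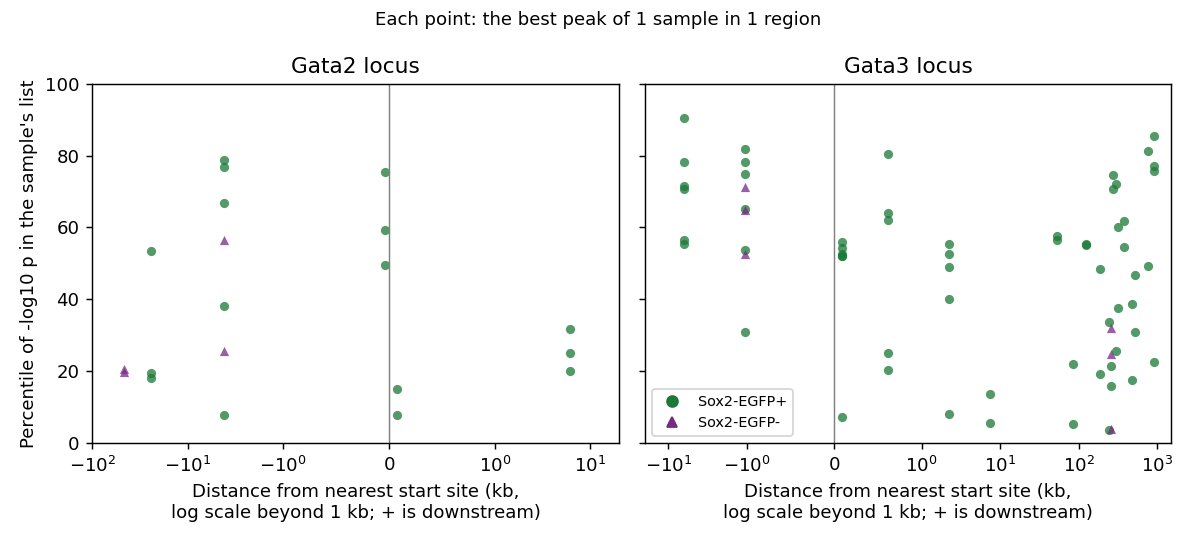
Percentile of -log10 p (vertical axis) against distance from the nearest start site (horizontal axis, kb, linear within 1 kb and logarithmic beyond), with 1 point per sample and region. At Gata3 the Sox2-EGFP- triangles stand at 2 positions, 1.07 kb upstream and 258 kb downstream, and at Gata2 at 4.13 and 45.9 kb upstream.

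Gata2 regions ran from 45.9 kb upstream to 6.1 kb downstream of a start site. The region called most often (chr6:88139463-88140267, intergenic, 4.13 kb upstream of the distal start site) had a peak in 5 Sox2-EGFP+ and 2 Sox2-EGFP- samples. In Sox2-EGFP+ cells its percentile was 7.87 in E12 replicate 1, 78.9 and 38.1 at E14.5, and 66.7 and 76.8 at E16. In Sox2-EGFP- cells it was 25.6 at E14.5 and 56.6 in E16 replicate 1, within that range. It was the only Gata2 region with an E12 peak.

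The proximal promoter of Gata2 (chr6:88148201-88148941, summit 35 bp upstream of the start site) was called in 3 Sox2-EGFP+ samples, at percentile 49.6 in E14.5 replicate 1 and 59.4 and 75.5 at E16. The 3 summits lay within 12 bp. The distal promoter (chr6:88143800-88144046) had weak peaks in the 2 longest lists alone, at percentiles 15 and 7.91 and with a fold enrichment of 2.56 in both. No E12 sample and no Sox2-EGFP- sample had a peak at either Gata2 start site, whereas the proximal promoter of Gata3 had a peak at all 3 stages in Sox2-EGFP+ cells.

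A region 24.3 kb upstream of Gata2 (chr6:88119392-88120116, intergenic) and 1 with its summit in a Gata2 intron 6.1 kb downstream of the proximal start site (chr6:88154499-88154940) were each called in E14.5 replicate 1 and both E16 samples of Sox2-EGFP+ cells. Upstream the percentiles were 53.4, 18 and 19.4, and in the intron they were 20.1, 31.8 and 25.1. The region 45.9 kb upstream (chr6:88097545-88097999, intergenic) was the only member called in Sox2-EGFP- cells alone, in both E16 samples at percentiles 19.8 and 20.5. The 2 summits there lay 317 bp apart, in a region of 455 bp.

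Levels can be compared between samples by rank where every sample has a peak. The rank of -log10 p among such regions was turned into a normal score, in which 0 is the middle rank, and tested with limma and Benjamini-Hochberg adjustment. Between Sox2-EGFP+ and Sox2-EGFP- cells, 5069 regions could be tested, and 1.58% were called higher and 0% lower in Sox2-EGFP+ cells. The single member among them, 1.07 kb upstream of the proximal Gata3 start site, differed by -0.10 (SE 0.41; limma, adjusted p = 0.959). Its percentile among these regions was 13.1 and 55.4 at E12, 6.91 and 8.59 at E14.5 and 17.1 and 3.23 at E16 in Sox2-EGFP+ cells, and 25, 15.9 and 9.01 in Sox2-EGFP- cells. Groups overlapped, and all but 1 sample placed the region below the middle of the shared set. The sign of the difference turned without E14.5 Sox2-EGFP- replicate 2 (0.06) and without E16 Sox2-EGFP+ replicate 2 (0.05). All E12 samples were of Sox2-EGFP+ cells, so stage and cell type were mixed in this contrast. The difference was -0.44 with stage as a covariate, -0.25 without E12 and -0.23 at E16 alone with replicate as a covariate. It was called in none of these.

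For the stages, 5719 regions called in each of the 6 Sox2-EGFP+ lists were tested, 3 of them at Gata3. None of the 5719 was called in any contrast, with 0% higher and 0% lower in each. At an unadjusted p under 0.05 there were 551 regions for E14.5 against E12, 128 for E16 against E14.5 and 699 for E16 against E12. Without E12 replicate 1 the adjusted calls were 18 for E14.5 against E12 and 54 for E16 against E12, and without E12 replicate 2 they were 17 and 54, none of them at Gata3. In simulated data with the same samples and spread, the fit recovered 1 of 200 planted shifts of 2 normal scores between E14.5 and E12. The other stage contrasts were not simulated.

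The region 6.33 kb upstream of Gata3 had the largest stage difference of the 3. Its normal score was -0.42 and 0.37 at E12, -0.37 and -0.63 at E14.5, and -1.84 and -1.45 at E16, so both E16 samples lay below the other 4. The difference of E16 from E12 was -1.62 (SE 0.55; limma, adjusted p = 0.267), that of E16 from E14.5 was -1.14 (SE 0.55; adjusted p = 1) and that of E14.5 from E12 was -0.47 (SE 0.55; adjusted p = 0.815). With 1 sample left out, they ran from -2.01 to -1.22, from -1.34 to -0.95 and from -0.87 to -0.08. None of these passed the threshold of 0.05.

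At the proximal Gata3 promoter the scores were -0.54 and -1.69 at E12, -2.55 and -1.27 at E14.5, and -1.94 and -2.52 at E16. E16 differed from E12 by -1.11 (SE 0.61; limma, adjusted p = 0.488), with a range of -1.69 to -0.54 when 1 sample was left out. At the neighbouring region 1.07 kb upstream the scores were -1.09 and 0.19 at E12, -1.45 and -1.22 at E14.5, and -0.70 and -1.66 at E16, and E16 differed from E12 by -0.73 (SE 0.60; limma, adjusted p = 0.655), with a range of -1.36 to -0.09 when 1 sample was left out. The stages overlapped in both regions.

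**Figure D5:**
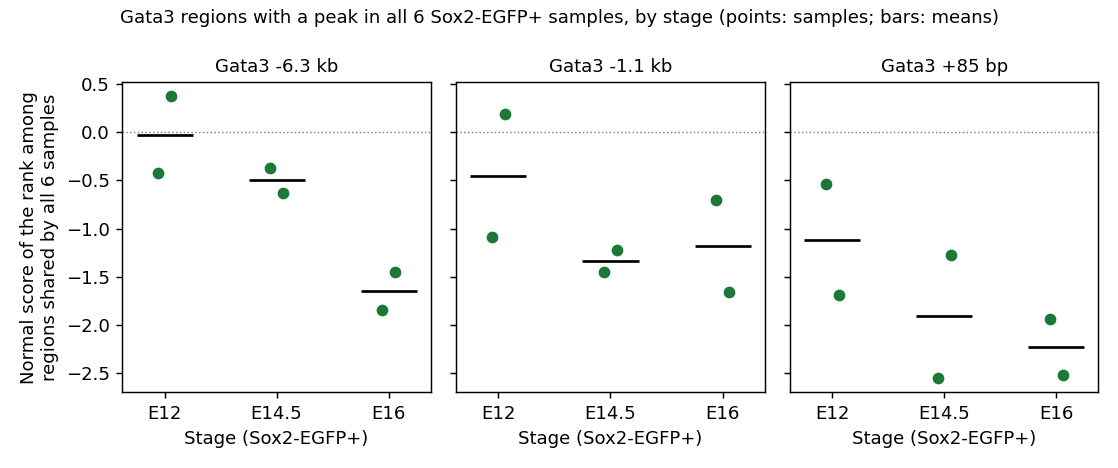
Normal score of the rank among the 5719 regions shared by all 6 Sox2-EGFP+ samples (vertical axis, 0 is the middle rank) by stage, for the 3 Gata3 regions in this set. Points are samples and bars are means of 2. The E16 points of the region 6.33 kb upstream, -1.84 and -1.45, lie below its other 4.

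In base composition the loci differed from each other. Within 200 bp of the highest summit, the median G+C was 65.8% over the 6 Gata2 regions and 53.2% over the 20 Gata3 regions, against 53.5% over all regions. The Gata2 promoters held 24 and 26 CpG in this window and the region 4.13 kb upstream held 22, against a median of 4 over all regions. At Gata3 the highest number was 14, in the region called in all 9 samples. Median widths were alike, 590 bp at Gata2, 592 bp at Gata3 and 577 bp over all regions.

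The letters of 5 transcription factor motifs, searched on both strands, are given for these 200 bp. The GATA letters AGATAA were present in 1 of the 26 regions, 52.8 kb downstream of Gata3, and in 8.3% of all regions. AGATAG, which stands in the printed Gata2 sequence 4.13 kb upstream, was not among the letters searched. SOX letters (ACAATG) were present in 4 of 26 and 13.2% of all regions and TEAD letters (CATTCC) in 4 and 13%. EBF letters (CCCNNGGGA) were present in 4 of 26 and 6.75% of all regions. GRHL letters (AACNNGTT) were present in 1 of 26, with its summit 617 bp downstream of the distal Gata3 start site, and in 2.84% of all regions.

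The shorter GATAA, which AGATAA contains, and CCAAT were added after the sequences were seen. GATAA was present in 3 of 26 regions and 17.9% of all regions, and the 3 were Gata3 regions 52.8, 476 and 909 kb downstream. In the region 909 kb downstream it stands in capitals in the printed sequence. CCAAT was present in 7 of 26 and 22.2% of all regions, among them the proximal Gata2 promoter, which held it on each strand once, and the Gata3 region called in all 9 samples. The capitals at the start of the printed Gata2 promoter are a TEAD match.

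Among related genes, the other GATA family members Gata1, Gata4, Gata5, Gata6 and Trps1 had 31 regions, of which 74.2% were called in Sox2-EGFP+ cells alone and 0% in Sox2-EGFP- cells alone, where a missing call does not show closed chromatin. Gata1, an erythroid factor, had no region. Gata6 had 12 regions, 10 of them called in Sox2-EGFP+ cells alone. The GATA cofactors Zfpm1, Zfpm2, Lmo2, Lmo4, Ldb1 and Tal1 had 47 regions, 61.7% of them called in Sox2-EGFP+ cells alone and 10.6% in Sox2-EGFP- cells alone. Of genes that act with Gata3 in the ear, Sox2 had 37 regions, 33 of them called in Sox2-EGFP+ cells alone, Eya1 had 24 and 20, Pax2 had 17 and 15, and Prox1 had 16 and 12. Fewer regions were assigned to Isl1, with 9 and 8 of them called in Sox2-EGFP+ cells alone, Fgf10, with 5 and 3, Dlx5, with 4 and 3, and Pax8, with 1 and 0. Over all regions the share called in Sox2-EGFP+ cells alone was 65.5%, and none of these lists was tested against it.

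Markers of cells that could carry Gata2 or Gata3 accessibility of their own were also counted. Of 5 blood cell markers (Ptprc, Sfpi1, Csf1r, Gata1 and Tal1) none had a peak within 1 kb of a start site in any of the 9 samples. Their 9 regions elsewhere were called in Sox2-EGFP+ cells alone for 77.8%, against 65.5% of all regions. Of 32 regions of the endothelial markers Cdh5, Kdr, Tek, Pecam1 and Tie1, 71.9% were called in Sox2-EGFP+ cells alone, near the share of all regions. Cdh5, Pecam1 and Tie1 had no peak within 1 kb of a start site in any sample, while Kdr had one in 5 Sox2-EGFP+ and 3 Sox2-EGFP- samples and Tek in 2 and 3. Of genes known from glia, Sox10 had a peak within 1 kb of a start site in 4 Sox2-EGFP+ and 0 Sox2-EGFP- samples, Foxd3 in 3 and 0, and Erbb3 in 5 and 3. The part of such cells in the Gata2 and Gata3 regions was not tested.

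Over the 9 samples, the genes whose peaks per 10000 ran most like those of Gata3 were Sh3gl2 (Pearson r = 0.97), Prkd1 (r = 0.96) and Gm17359 (r = 0.95), among 1580 genes. For Gata2 they were Il17b (r = 0.93), Zfp236 (r = 0.92) and Zcchc6 (r = 0.92). These r values describe 9 points that share the list lengths, and in all 3 of the Gata2 neighbours the E12 replicate 2 sample was at 0, as at Gata2.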

How the data were processed

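ATAC-seq peak lists of 9 samples were used as deposited. Before deposit, the authors used Trim Galore for adapter trimming and Bowtie2 for alignment to mm9, discarded duplicate and mitochondrial reads, called peaks per sample with MACS2 and kept those replicated in another sample of the same type. Each deposited list gives a score, the fold enrichment, and the -log10 of the p-value and q-value of a peak.

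Start sites came from GENCODE vM1 on the same build. Peaks were merged within 100 bp (at least 1 bp shared or up to that gap) and matched the output of bedtools 2.31.1 in full. A region was given the gene of most of its peaks. Ranks were tested with limma 3.58.1 in R 4.3.3 on normal scores, two-sided, with all groups of a test sharing 1 spread. The tests were checked on simulated data, in which 159 of 200 planted cell type shifts were recovered, but only 1 of 200 planted shifts between E14.5 and E12. Replicates were separate litters.

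The members, gene lists and motifs were chosen with earlier results of these data known. Regions described singly were those over a start site, in all 9 or all 6 Sox2-EGFP+ samples, in Sox2-EGFP- cells alone, with an E12 peak but no Sox2-EGFP- peak, and the 3 best ranked per gene. Similar genes were the 3 with the highest Pearson r among genes with at least 10 regions. Both E16 samples numbered 1 carry another run name than the other 7 samples and were taken as batch 1. At E16 both cell types were collected in parallel, and deviations of same-numbered samples correlated with r = 0.25 over 5069 regions. Same-numbered E16 samples also shared a batch, so parallel collection and batch cannot be told apart in this r. Across stages r was 0.06, -0.03 and -0.21 between Sox2-EGFP+ samples, so numbers did not pair the stages. Alternatives were other thresholds, merging distances, list lengths, start sites, covariates and samples left out. One motif and the counts of some marker lists are not reported here.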

Additional observations from a re-analysis of the deposited data

Results flagged for a closer look

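In 9 sets of Sox2-EGFP+ values tested with Dixon's test, 2 held a sample far from the others, and chance alone marks about 1 set in 20. At the proximal Gata3 promoter, the percentile of 7.17 in E12 replicate 2 lay far below the other 5 samples (52 to 56), with a gap of 0.918 of the whole range. In the Gata3 region 909 kb downstream, the percentile of 22.7 in E14.5 replicate 2 lay below the other 3 samples (75.6 to 85.5), with a gap of 0.843 of the range. E12 replicate 2 had the shortest list, 7577 peaks, and the part of its length in the first value was not tested.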

How the results depend on the processing

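Leaving out 1 sample could not change the region counts, since each peak deposited had a partner in another sample of its cell type. With the 7577 best peaks of each list, Gata2 kept 0 regions (0 in Sox2-EGFP+ alone, 0 shared, 0 in Sox2-EGFP- alone) and Gata3 kept 4 (3, 1 and 0), while 34.6% of all 15517 such regions were called in Sox2-EGFP+ cells alone. Without the 2 longest lists, chosen after seeing the data, Gata3 kept 7 (5 in Sox2-EGFP+ alone, 1 shared and 1 in Sox2-EGFP- alone). No share over all regions is given for that setting. With start sites of all transcripts Gata3 kept 8 (7, 1 and 0). Only the gene given to a region changes there, and the share over all regions called in Sox2-EGFP+ cells alone is 65.5%. With a -log10 q of at least 5, the Gata2 difference in median peaks per 10000 turned from 0.31 to -0.0131. It was 0.105 without E16 Sox2-EGFP- replicate 2, 0.11 without the E14.5 Sox2-EGFP- sample and 0.15 without the 2 longest lists.

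Of the 5069 regions tested between cell types, 80 were called. There were 44 with fold enrichment, 31 of 2369 with a -log10 q of at least 5 (the tested Gata3 region dropped out), 342 of 12714 without E12, 38 in batch 2 alone (chosen after seeing the data), 79 with the replicate block and 190 at E16 alone with the replicate block. Leaving out 1 sample gave 30 to 110 calls, the fewest without E16 Sox2-EGFP- replicate 1, 39 without replicate 2 of that group and 40 without the E14.5 Sox2-EGFP- sample. The Gata3 difference 1.07 kb upstream then ran from -0.35 to 0.06. It was -0.44 with stage as a covariate and was called under no alternative. For the stages, leaving out 1 sample gave 0 to 18 calls for E14.5 against E12 and 0 to 54 for E16 against E12, the calls arising without an E12 sample, and a -log10 q of at least 5 gave 4 for E16 against E12. The replicate block gave 0 calls. For E16 against E14.5, the difference at the proximal Gata3 promoter (-0.32) ran from -0.97 to 0.32 with 1 sample left out. That at 1.07 kb upstream (0.15) ran from -0.32 to 0.63, was -0.32 with batch as a covariate and -0.00089 on log2 fold enrichment. With 400 bp windows, matches in the 26 regions rose for GATA letters from 1 to 3 (8.3% to 17.4% of all regions), GATAA from 3 to 6 (17.9% to 35.1%) and CCAAT from 7 to 11 (22.2% to 38.3%). Apart from the narrower or wider input, the causes were not tested.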
